A study of Mus musculus with 2 samples.

Results

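The replication-dependent histone genes are the multicopy genes that encode the bulk H1, H2A, H2B, H3 and H4 proteins. They were taken as every mouse gene whose RefSeq symbol begins with H2ac, H2bc, H3c or H4c, or whose older RefSeq symbol begins with Hist1h, Hist2h, Hist3h or Hist4h. The RefSeq table held 71 such genes, 59 by current symbol and 12 by older symbol alone. Of these, 50 had a probe on the array, among 23462 RefSeq-named genes in all, and 21 had none. A value on both arrays was obtained for 38 of the 50 genes, against 11969 genes of the whole array.

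In proliferating cells these genes are transcribed mainly in S phase, when new DNA must be packaged into nucleosomes. Each nucleosome wraps DNA around H2A, H2B, H3 and H4, and H1 binds the linker DNA between nucleosomes. Most of their mRNAs lack introns and end in a conserved stem-loop bound by the stem-loop binding protein Slbp in place of a poly(A) tail, although some of the genes also give polyadenylated transcripts. Activated CD8 T cells divide rapidly, and glucocorticoids such as prednisolone act through the glucocorticoid receptor, a DNA-binding transcription factor.

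The study compared 2 cultures of naive CD8 T cells (CD44 low, CD62L high) from the spleen of C57BL/6 mice. Both were stimulated for 2 days on immobilised antibodies to TCR-β (3 µg/ml) and CD28 (1 µg/ml) with interleukin-2 at 10 ng/ml, and were then held for 3 days in a new plate with interleukin-2 alone, so that RNA was taken on day 5. One culture received prednisolone at 1 µM and the other vehicle control. The labels do not say how many mice gave the cells of each culture. RNA (100 ng) was labelled with Cy3 for a 1-colour Agilent array, 1 array per culture. The labels do not state the primer of the labelling reaction, and with an oligo-dT primer the histone values would reflect mainly polyadenylated transcripts. With 1 array per culture, no test between conditions was possible and no p-value is given.

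Both arrays lay on 1 slide and came from 1 scan. Of the spots, 53.5% were well above background on each array and none was saturated. All 9 CD8 T cell marker genes on the array were well above background on both arrays. So were 3 of 4 CD4 T cell markers and 2 of 3 NK cell markers. For B cells it was 2 of 5 markers, for myeloid and dendritic cells 3 of 6 and for erythroid cells 1 of 3. The 7 CD8 T cell markers with a value had a median difference of −0.42, with 6 below 0 and 1 above. Of the NK cell list, Eomes gave 2908 with vehicle and 541.6 with prednisolone, a difference of −2.38, while Klrb1c differed by 0.07. The myeloid marker Cd68 gave 1045 with vehicle and 217.3 with prednisolone, while Csf1r and Itgam of the same list differed by 0.23 and 0.02. The globin gene Hba-a1, the only erythroid marker with a value, gave 47.2 and 715.0. The part of these markers in the histone values was not tested. The number of arrays limits the precision. Each ± is the error that the scanner software assigns to a spot, carried to the difference, which has a median of 0.20 log2 units over all genes and covers neither labelling nor culture. Differences are log2(prednisolone) minus log2(vehicle) after each array was set to its 75th percentile, and levels are processed signals in linear intensity units.

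The proximal promoters show what the members share beyond their names. RefSeq promoters (GRCm38.p6) were given for 62 of the 71 genes, in 63 windows of 250 bases upstream of a start site. The 120 bases next to the start are printed for H1f6 and H2bc6, whose signals were higher with prednisolone, and for H1f4, H1f3 and H2bc14, whose signals were lower. Capitals mark a CCAAT box read on either strand, a TATAAA box, or the octamer ATTTGCAT.
H1f6, chr13:23695691-23695810, plus strand: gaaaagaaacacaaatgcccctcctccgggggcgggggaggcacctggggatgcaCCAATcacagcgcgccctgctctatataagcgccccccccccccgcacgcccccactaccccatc
H1f4, chr13:23622559-23622678, minus strand: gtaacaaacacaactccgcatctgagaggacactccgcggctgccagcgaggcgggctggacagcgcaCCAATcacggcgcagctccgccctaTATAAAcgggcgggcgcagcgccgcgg
H1f3, chr13:23554912-23555031, plus strand: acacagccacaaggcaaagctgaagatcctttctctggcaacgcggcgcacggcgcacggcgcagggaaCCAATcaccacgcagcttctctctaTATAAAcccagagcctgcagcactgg
H2bc6, chr13:23585971-23586090, minus strand: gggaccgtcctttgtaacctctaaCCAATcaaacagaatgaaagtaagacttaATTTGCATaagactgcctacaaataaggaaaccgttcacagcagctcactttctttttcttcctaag
H2bc14, chr13:21721924-21722043, plus strand: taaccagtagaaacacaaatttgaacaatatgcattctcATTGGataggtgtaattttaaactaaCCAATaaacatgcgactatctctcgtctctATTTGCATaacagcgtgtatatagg

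A CCAAT box, the site of the factor NF-Y, was found on either strand in all 6 H1, all 18 H2A and all 17 H2B windows, in 8 of 10 H3 windows and in 3 of 12 H4 windows. In total 82.5% of the histone windows held CCAAT, against 33.8% of the 32851 promoter windows of the same length. TATAAA was present in 46.0% of the histone windows and in 12.4% of all windows. The octamer ATTTGCAT, known from H2B promoters, occurred in 7 of 18 H2A and 7 of 17 H2B windows and in no H1, H3 or H4 window, against 1.60% of all windows. Windows of neighbouring H2A and H2B genes can overlap, as for H2ac12 and H2bc12, so the same match can count in both types. H1f6 carried CCAAT but not TATAAA in the window searched, and so did H1f2, whose signal was lower (−0.44). H1f1, H1f3, H1f4 and H1f5 carried both. H2bc14 and the printed window of H2bc6 both carried CCAAT and the octamer, although their signals differed in direction. RefSeq gives H2bc6 a second start, whose window carried CCAAT and no octamer. AGAACA, a half-site of the glucocorticoid receptor that was chosen after the values were seen, occurred in 9 of 63 histone windows (14.3%), against 16.1% of all windows. No match of one motif overlapped a match of another. These matches describe letters in a window and were not tested as sites.

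The histone genes gave mostly slightly lower signals in prednisolone-treated cells, with a few genes clearly higher. The median difference of the 38 measured genes was −0.26, against 0.0015 over all genes, and the values ran from −1.02 for H2bu2 to 3.13 for H1f6. Of the 38 genes, 33 (86.8%) were below 0, against a background of 49.9% of all measured genes. Only 2 (5.26%) were at least 2-fold higher, H1f6 and H2bc4, against 6.87% of the 13136 genes with a value or a bound. Just 1 gene (2.63%), H2bu2, was at least 2-fold lower, against 7.80%. The shares past 2-fold were thus not above the background, and the pattern lay in the common sign of small differences. In 25 of the 38 genes the difference was below 0 by more than the software error, in 3 it was above 0 by more than that error, and in 10 it was within it. Over all genes, 34.1% were below 0 and 34.9% above 0 by more than their error.

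The sign depends on the scale between arrays. Scaling on the 8 spike-in control probes adds 0.24 to every difference, which moves the all-gene median to 0.24 and the histone median to −0.03, with 20 of 38 genes below 0. Such a constant leaves values relative to the all-gene median as they were by construction: the histone median lay at −0.27 from it, and 33 of 38 genes lay below it. Probes to near-identical gene copies can capture mRNA of several copies, so values of single H2A, H2B, H3 and H4 genes are uncertain as to the copy.

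**Figure D1:**
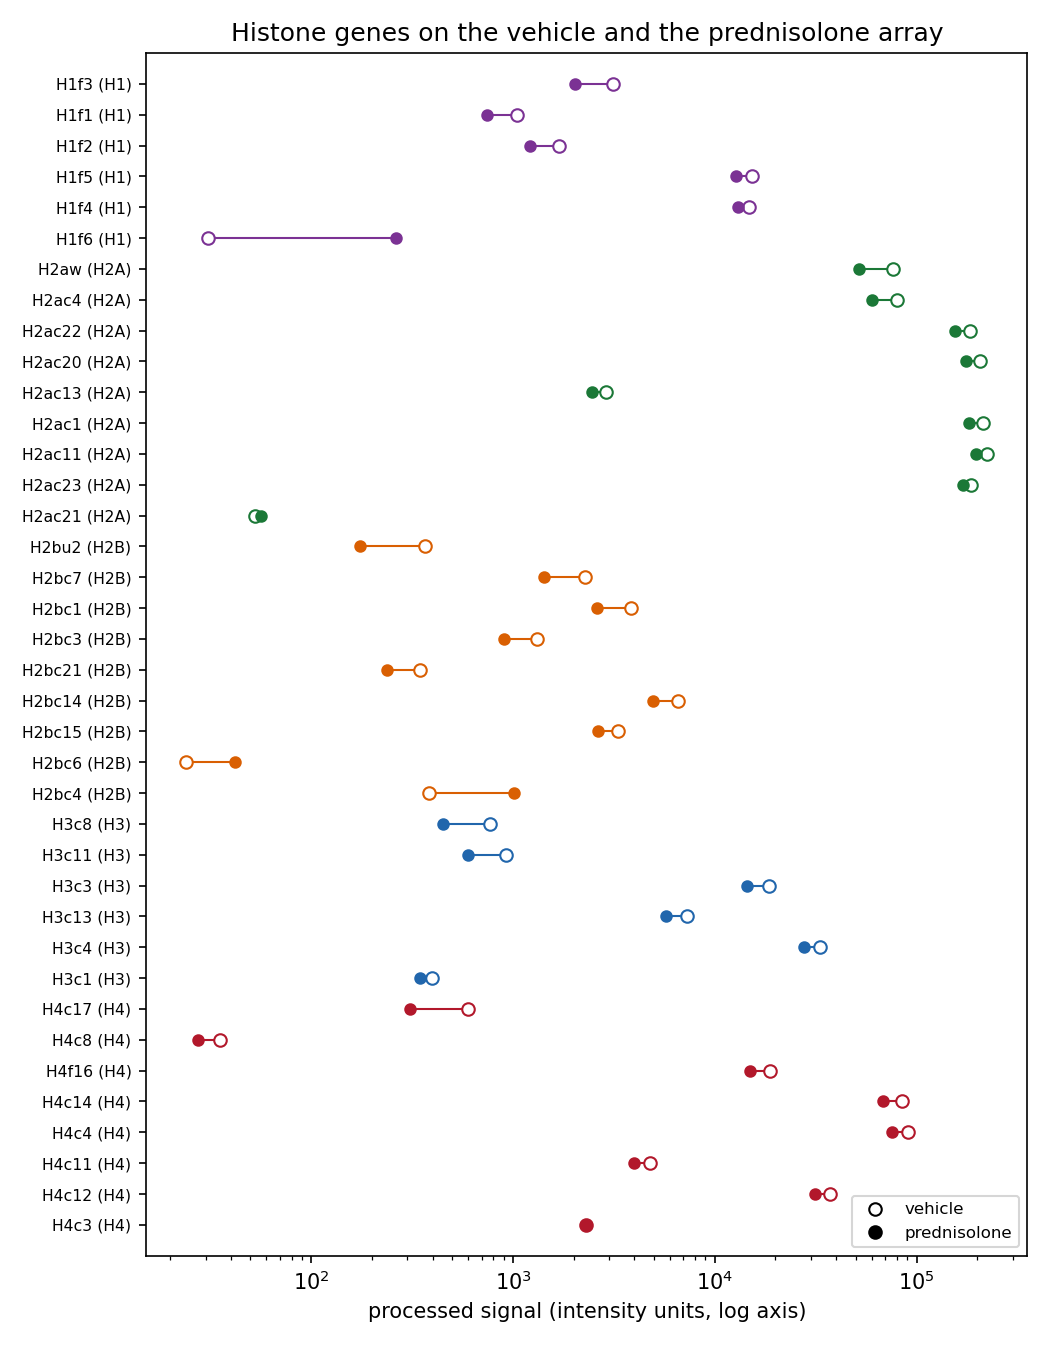
Processed signal (intensity units, log axis) of each of the 38 measured histone genes on the vehicle array (open circles) and the prednisolone array (filled circles), 1 array each, coloured by histone type and ordered within a type from the lowest to the highest difference. Signals are drawn before scaling between the arrays; the prednisolone circle lies left of the vehicle circle for most genes and far to the right for H1f6 and H2bc4. Levels of different genes come from different probes and are not comparable with each other.

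Among the linker histones, the 5 somatic genes were lower with prednisolone and the testis gene H1f6 was far higher. All 6 H1 genes were on the array and measured, with a median difference of −0.33. H1f3 went from 3120 on the vehicle array to 2023 on the prednisolone array, a difference of −0.57 ± 0.20. H1f1 went from 1048 to 743, a difference of −0.45 ± 0.20. H1f2 went from 1700 to 1212, a difference of −0.44 ± 0.20. These 3 genes were lower by more than the software error. The brightest H1 probe on the vehicle array, that of H1f5, gave 15344 and 12687, a difference of −0.22 ± 0.20. That difference was also just past the error. H1f4 gave 14795 and 13018, and its difference of −0.13 ± 0.20 was within the error. With spike-in scaling H1f4 and H1f5 lay above 0, at 0.10 and 0.01.

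H1f6 encodes H1t, the linker histone of spermatocytes. Its probe gave 30.9 on the vehicle array and 261.9 on the prednisolone array, a difference of 3.13 ± 0.24, or 8.76-fold. The vehicle value is dim, and with normexp background correction the difference was 1.87. Markers of male germ cells did not share 1 direction. Of 6 such marker genes on the array, 4 were well above background on both arrays, and the summed signal of their brightest probes was 361 with vehicle and 247 with prednisolone. The protamine gene Prm1 differed by −1.56, the transition protein gene Tnp2 by −0.43 and Prm2 by 0.03, and the meiotic gene Sycp3 gave no value. Dazl, a germ cell RNA-binding protein gene, also gave no value by the rules used here, although it was marked well above background with prednisolone only.

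H2A probes were among the brightest on the array, and their differences were small. The 9 measured H2A genes had a median of −0.18, 8 lay below 0, and in 6 the difference was within the software error. H2aw, a core H2A gene of the Hist3 group, was the lowest, with 76543 on the vehicle array and 52096 on the prednisolone array, a difference of −0.51 ± 0.20. H2ac4 gave 79966 and 60429, a difference of −0.35 ± 0.20. The brightest, H2ac11, gave 224684 and 197504, a difference of −0.14 ± 0.20. H2ac1, the testis variant TH2A, gave 213856 and 182564, a difference of −0.18 ± 0.20. H2ac22, H2ac20, H2ac13 and H2ac23 lay between −0.21 and −0.08. The single H2A gene above 0 was H2ac21, with a dim 52.5 and 56.7 and a difference of 0.16 ± 0.23. With spike-in scaling the H2A median was 0.06, above 0 but still below the all-gene median of 0.24.

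H2B genes spread most among the core histones, with the lowest member of the whole set and, apart from H1f6, the highest. Their median over 9 genes was −0.49, the lowest of the 5 types, and all 9 differed from 0 by more than the software error, 7 below and 2 above, against 69.0% of all genes in either direction. H2bu2, of the Hist3 group, gave 366.9 on the vehicle array and 174.5 on the prednisolone array, a difference of −1.02 ± 0.21, or 2.03-fold lower. Its place past 2-fold was marginal and was lost under 4 of the alternatives tried, with −0.78 under spike-in scaling. H2bc7 gave 2278 and 1425, a difference of −0.63 ± 0.20. H2bc1, the testis variant TH2B, gave 3853 and 2625, a difference of −0.50 ± 0.20. Both genes measured by 2 probes agreed in sign between them, with −0.57 and −0.41 for H2bc3 and with −0.56 and −0.42 for H2bc21. H2bc14, with the highest H2B signal averaged per gene, gave 6590 and 4970, a difference of −0.36 ± 0.20. H2bc15 gave 3324 and 2642, a difference of −0.28 ± 0.20.

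The 2 H2B genes above 0 were H2bc4 and H2bc6. H2bc4 gave 382.7 on the vehicle array and 1007 on the prednisolone array, a difference of 1.45 ± 0.20, or 2.72-fold higher. It stayed between 1.36 and 1.68 under the 9 alternatives tried. H2bc6 gave 24.0 and 41.8, a difference of 0.85 ± 0.29, at dim signals on both arrays. Normexp correction brought it to 0.26.

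All 6 measured H3 genes were lower with prednisolone, with a median of −0.31. H3c8 gave 767.5 on the vehicle array and 449.5 on the prednisolone array, a difference of −0.72 ± 0.20. H3c11 gave 921.7 and 599.5, a difference of −0.57 ± 0.20. H3c3 gave 18650 and 14381, a difference of −0.33 ± 0.20. The brightest, H3c4, gave 33234 and 27560, a difference of −0.22 ± 0.20. H3c13, the only measured H3 gene of the Hist2 group, gave 7311 and 5754, a difference of −0.30 ± 0.20. H3c1 gave 398.3 and 345.1, a difference of −0.16 ± 0.20, within the error. With spike-in scaling H3c4 and H3c1 lay above 0, at 0.02 and 0.08, and the H3 median was −0.07.

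H4 genes were lower in 7 of 8 cases, with a median of −0.23. H4c17 stood lowest, with 600.7 on the vehicle array and 310.0 on the prednisolone array, a difference of −0.90 ± 0.20. H4f16, the gene of the Hist4 group, gave 18847 and 15031, a difference of −0.28 ± 0.20. H4c14, H4c11 and H4c12 lay between −0.25 and −0.20, and the dim H4c8 at −0.31 ± 0.27. H4c3 gave 2301 and 2307, a difference of 0.05 ± 0.20, and was the only H4 gene above 0. With spike-in scaling the H4 median was 0.01.

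H4c4 had the most repeats on the array. Its gene value over 2 probes was 90602 with vehicle and 75511 with prednisolone, a difference of −0.21 ± 0.14. One of these probes was printed 10 times, and 8 spots were used. They ran from 161431 to 171106 on the vehicle array and from 136455 to 146121 on the prednisolone array, with no overlap. The SD of log2 signal over the spots was 0.033 and 0.034, and the probe's difference was −0.18. Spots of 1 array share the RNA and the labelling and are not replicates of the culture.

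**Figure D2:**
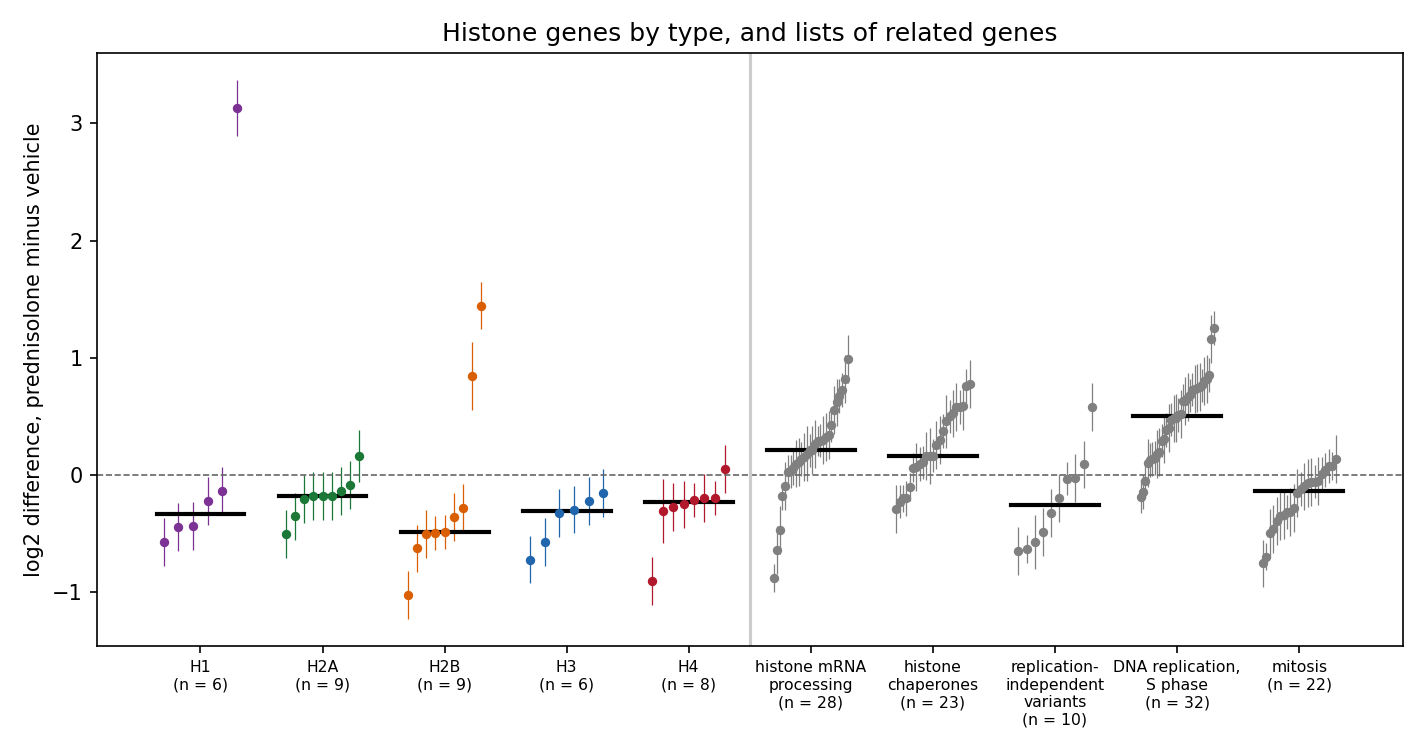
Log2 difference (prednisolone minus vehicle) of each measured gene, sorted within each column, for the 5 histone types (coloured) and for 5 lists of related genes (grey). Points are genes, vertical lines are the software error, thick bars are column medians and the dashed line is the all-gene median of 0.0015. The type medians lie between −0.49 and −0.18 and the S phase list has a median of 0.50, all of which spike-in scaling would raise by 0.24.

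The other 12 genes on the array gave no value. Of these, 8 had only spots with an outlier flag, namely H2ac10, H2ac12, H2ac15, H2ac19, H2ac7, H2bc18, H3c7 and H4c9. With flagged spots kept, 7 of them had a value. H2ac10, H2ac12, H2ac15 and H2ac19 then lay between −0.20 and −0.14, H3c7 was at −0.25, H4c9 at −0.36, and H2bc18 at 0.15. The 4 remaining genes, H2bc22, H2bc23, H2bu1-ps and H2af-ps2, were too dim on both arrays to stand well above background.

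In the main setting the common sign did not rest on dim probes. Among probes with a geometric mean signal of at least 10000, all 15 histone genes were below 0, with a median of −0.21 and an SD of 0.10. Over all 743 genes of that brightness, 51.8% were below 0, the median was −0.01 and the SD 0.47. From 1000 to 10000, 10 of 11 histone genes were below 0, against 44.6% of all genes. From 100 to 1000 it was 7 of 8, against 49.8%, with H2bc4 the exception. Below 100 it was 1 of 4, against 56.1%, and the other 3 were H1f6, H2bc6 and H2ac21. The 15 bright histone genes are not independent of each other, because their probes may share transcripts. With spike-in scaling they lay on both sides of 0, as with H2ac23 at 0.15 and H2aw at −0.27.

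**Figure D3:**
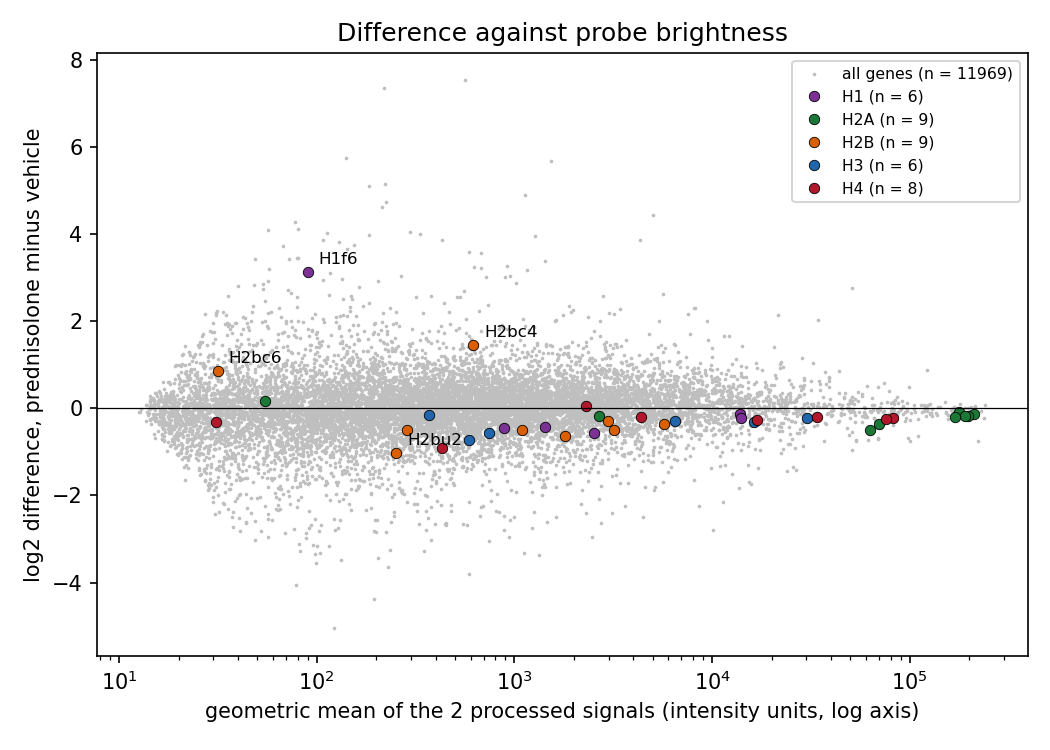
Log2 difference (prednisolone minus vehicle) against the geometric mean of the vehicle and prednisolone processed signals (intensity units, log axis) for all 11969 measured genes (grey) and the 38 histone genes (coloured by type). The histone genes brighter than 10000 form a narrow row just below 0, and H1f6, H2bc4 and H2bc6 stand above the rest at lower signals. Spike-in scaling would raise every point by 0.24.

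The Hist1 genes with higher signals lay near each other, while H2ac21, also above 0, belongs to the Hist2 group on chromosome 3. The Hist1 group on chromosome 13 had 30 measured genes, and the 4 above 0 (H2bc6, H2bc4, H1f6 and H4c3) lay in a stretch of 6 consecutive histone genes in RefSeq order. That stretch runs H2bc6, H1f4, H2ac6, H2bc4, H1f6, H4c3. H1f4 within it was at −0.13, and H2ac6 had no probe on the array. The 25 measured Hist1 genes outside the stretch lay between −0.90 and −0.08, with a median of −0.31. The nearest measured histone genes on either side were H4c4 at −0.21 and H1f2 at −0.44. This arrangement was noticed after the values were seen and has no test. Its members are unequal in strength, since H4c3 was within its error of 0 and H2bc6 was dim. With spike-in scaling the genes outside the stretch no longer all lie below 0.

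**Figure D4:**
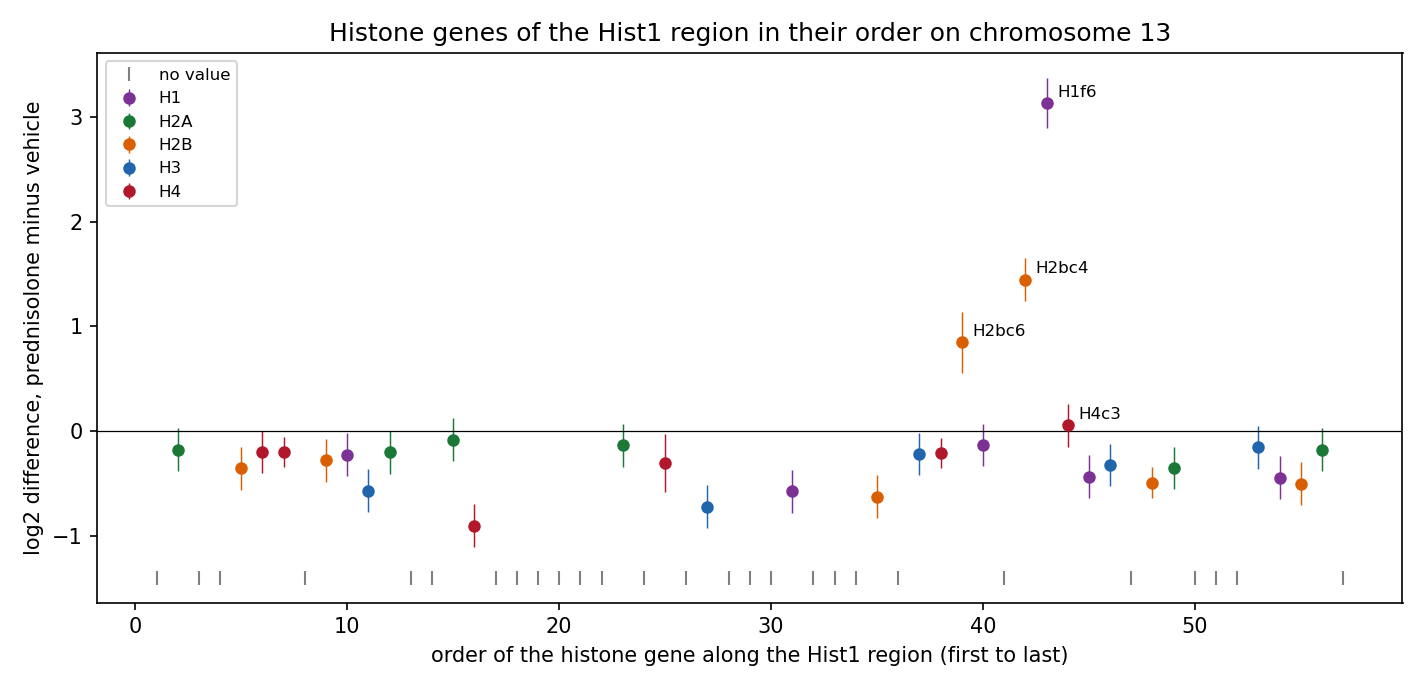
Log2 difference (prednisolone minus vehicle) of the chromosome 13 histone genes, in their RefSeq order along the chromosome. Points are genes coloured by type, vertical lines are the software error, and grey ticks at the bottom mark genes with no value. H2bc6, H2bc4, H1f6 and H4c3 stand above 0 near each other, with H1f4 at −0.13 and H2ac6, which has no value, between H2bc6 and H2bc4. Spike-in scaling would raise every point by 0.24.

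Lists of genes that act around the histone genes had medians on both sides of 0. The list of histone mRNA 3′ end processing and decay had 28 measured genes of 29 on the array, a median of 0.21 and 23 genes above 0, with none 2-fold apart. Slbp, which binds the histone mRNA stem-loop, gave 679.0 on the vehicle array and 803.9 on the prednisolone array, a difference of 0.29. Npat, the coactivator of histone gene transcription in S phase, gave 274.1 and 307.7, a difference of 0.22. Farthest from 0 was Srrt, a cap-binding complex partner, with 392.1 and 752.8 and a difference of 0.99.

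Histone chaperones and supply factors, which carry new histones to DNA, had a median of 0.17 over 23 measured genes, with 18 above 0 and none 2-fold apart. Ipo4, a nuclear import receptor for histones, was farthest from 0, with 2220 and 3677 and a difference of 0.78. The replication-independent histone variants, which are made outside S phase as well, had a median of −0.26 over 10 genes. That was close to the median of the 38 replication-dependent genes, also −0.26. Of the variants, 8 were below 0 and none was 2-fold apart, with values from −0.65 to 0.58 for H2az1. The centromeric variant Cenpa was farthest from 0, with 5559 and 3430 and a difference of −0.65.

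DNA replication and S phase genes lay on the other side of the median gene from the histone genes. Over 32 measured genes the median was 0.50 and 29 were above 0. At least 2-fold higher were 2 of the 32, a share close to the 5.76% of all measured genes. These 2 were Orc1, of the origin recognition complex, and the cyclin Ccne1. Orc1 gave 205.4 and 473.0, a difference of 1.25, and Ccne1 gave 3598 and 7751, a difference of 1.16. Mitosis genes had a median of −0.14 over 22 genes, with 17 below 0 and none 2-fold apart. Cenpf, a kinetochore protein, was farthest from 0, with 1081 and 618.4 and a difference of −0.76. Spike-in scaling adds 0.24 to each of these medians too. The part of the S phase and mitosis values in the histone values was not tested, and in bulk RNA fewer cells in a state and less RNA per cell cannot be told apart.

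**Figure D5:**
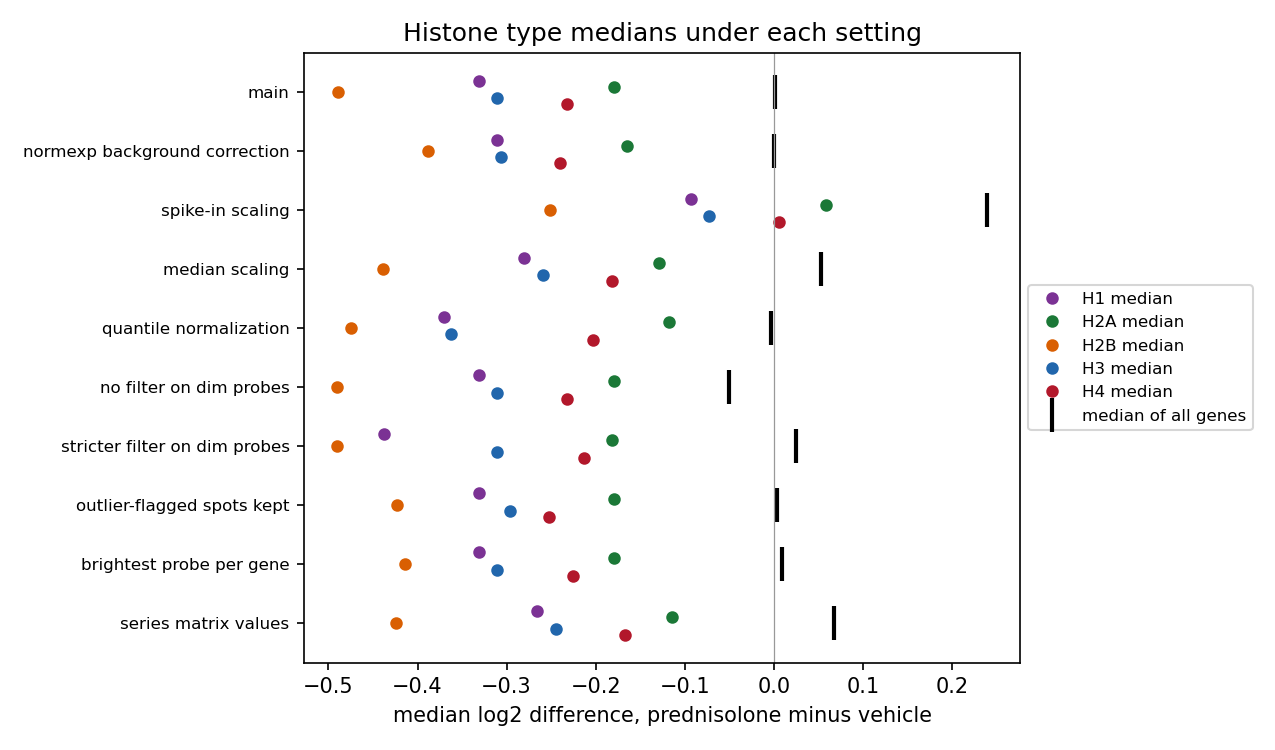
Median log2 difference (prednisolone minus vehicle) of each histone type (coloured circles) and of all genes (black bars) under the main setting and each of 9 alternatives. Spike-in scaling moves every circle and the bar right by 0.24, with the H2A and H4 medians then above 0 at 0.06 and 0.01; under each setting every type median lies left of the all-gene bar.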

How the data were processed

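The members, the gene lists and the motifs were chosen with earlier results of these data known. The deposited scanner files, from Agilent Feature Extraction 12.0.3.1 per the submitters' processing notes and the file headers, give the processed intensity of each spot, already background-subtracted by the software, and yes-or-no flags for background, saturation and outliers. Probes were named by unversioned accession through a RefSeq table (33767 of 56605 probes). Control and outlier-flagged spots were left out (5879 probes). Spots of a probe were averaged, and log2 intensity was set to each array's 75th percentile (400.4 for vehicle, 386.9 for prednisolone). Probes of a gene that stood well above background on both arrays were averaged, and a gene seen on 1 array got a bound. With 1 array per group, genes were described by counts at least 2-fold apart and by medians. Named in full were the highest, lowest and brightest member of each type, members 2-fold apart, Slbp, Npat and, per list, up to 2 members at each end past 2-fold or else the one farthest from 0.

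The first alternative was normexp correction in limma 3.58.1 (R 4.3.3) with an offset of 50. It used the median spot signal because the scanner files gave no mean signal column. Others were spike-in, median and quantile scaling, no filter and a minimum signal of 100, flagged spots kept and the brightest probe. The last was the deposited series table, with column medians of 16.2 and 16.4. Its intensity values are the processed signal times 0.792 (vehicle) or 0.858 (prednisolone). The sources used here do not say how these constants were set. The scripts were tested on simulated data.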

Additional observations from a re-analysis of the deposited data

How the results depend on the processing

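With spike-in scaling, every difference was 0.24 higher. The H2A and H4 medians then crossed to 0.059 and 0.0059, and that of the mitosis list to 0.10. The medians of all histone genes, H1, H2B and H3 were then −0.026, −0.093, −0.25 and −0.072. Those of 3′ end processing, chaperones, replication-independent variants and S phase were 0.45, 0.40, −0.021 and 0.74. Of all genes 2-fold apart, 46.6% were higher in the main setting and 70.5% with spike-in scaling. The count of histone genes at least 2-fold lower was 0 under normexp correction, spike-in scaling, median scaling and the deposited series values, and 3 of 42 with no filter on dim probes. The count at least 2-fold higher was 1 with the stricter filter, under which the dim H1f6 has no value, and 3 both with spike-in scaling and with no filter. With current symbols only, an alternative added after seeing the data, the counts were 1 higher and 0 lower of 29 genes. With members dimmer than 10000 on the vehicle array, also added, the median of 23 genes was −0.36, and that of the 2 H2A genes left was −0.01. Over the single histone genes, 301 of 338 values under the 9 alternatives lay within the software error of the main value. The other 37 were each from a different gene, H1f6 and H2bc6 under normexp correction and the rest under spike-in scaling. No paired analysis was possible because each group has 1 array, and for the same reason no array could be left out. Dim probes limit H1f6, H2bc6, H2ac21 and H4c8.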

Other observations

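Hfe, the hemochromatosis gene, lies between H4c3 and H1f2 in RefSeq order. It gave 35.6 on the vehicle array and 9.9 on the prednisolone array, where it was not well above background. Slc17a2, a gene of the SLC17 transporter family between H1f1 and H2bc1, gave 72.5 with vehicle and was likewise not well above background with prednisolone. Both were named after their values were seen. Among close neighbours of the Hist1 histone genes in RefSeq order, they were the genes without a histone product detected on 1 array only. Genes of the region farther from a histone gene were not examined.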
